A study of Mus musculus with 6 samples.

Results

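Chemokine receptors with the brain chemokines fractalkine and CXCL12 were followed in microglia of the nucleus of the solitary tract (NST), the brainstem nucleus where taste nerves end. The set holds 9 of the 26789 genes listed, taken by gene symbol and not by any measured value. It consists of 7 receptors (Cx3cr1, Ccrl2, Cxcr4, Ccr1, Ccr2, Cxcr3 and Ccr6) and 2 ligands (Cx3cl1, which encodes fractalkine, and Cxcl12). Each of the 9 reached the minimum of the test, an average of 10 normalized counts across libraries.

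The mice were C57Bl/6. Dams of the E3–E12 diet mice received a low-sodium diet with distilled water from embryonic day 3 to 12 and standard chow afterwards, and dams of controls received standard chow throughout. On postnatal day 15 the rostral NST was pooled from 6 male and female littermates per library, with 3 libraries per diet. By the study's methods, CD11b-positive cells were then taken with magnetic beads and their RNA was amplified, whereas the deposited description names laser microdissection and a different RNA kit, so the isolation is uncertain. The study checked the sorted fractions by flow cytometry. It reported that the great majority of live cells in the positive fraction, and very few in the negative fraction, carried CD45 and CD11b. CD11b is present on macrophages, monocytes, neutrophils and some lymphocytes as well as on microglia. The values are bulk measurements, in which fewer cells of a type and less RNA per cell cannot be told apart.

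Chemokines are small, mostly secreted proteins that bind G protein-coupled receptors and direct cell movement. Fractalkine, which in the brain comes mainly from neurons, is made as a membrane-bound protein that sheddases can release, and its receptor CX3CR1 is a hallmark of microglia. CXCL12 acts through CXCR4 and is cleared by the scavenger receptor ACKR3, while CCR1, CCR2, CCR6 and CXCR3 are better known on blood leukocytes than on resting microglia.

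One library stood apart. Control replicate 2 had 10640 genes listed at 0, against 3459 to 7135 in the other 5 libraries, and the highest total of normalized counts, 17204618 against 9407141 to 14656956. All 15 microglia markers (among them Tmem119, P2ry12 and Sall1) were above 0 in all 6 libraries, with summed levels of 111760 to 519211 normalized counts in controls and 104049 to 357681 in E3–E12 diet mice. Replicate 1 had the lowest sum in both diets. The mean log2 level of these markers was 11.70 in control replicate 1 and 11.52 in E3–E12 diet replicate 1, against 12.95 to 13.78 in the other libraries. Markers of other cells were present too. The 8 endothelial markers summed to 5321 to 18622 in controls and 15465 to 25248 in E3–E12 diet mice, and the 7 astrocyte markers to 1738 to 9132 and 4723 to 9725. In control replicate 2, 6 of the 8 endothelial, 5 of 6 mural and 6 of 7 astrocyte markers had their lowest value of the 6 libraries, and all 6 neutrophil markers their highest. The other 2 endothelial markers, Cldn5 and Pecam1, also had their highest value there. Fold changes below are therefore also given without this library.

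Of the 9 genes, 5 had a higher and 4 a lower mean log2 level in E3–E12 diet mice, and none passed the test (limma on log2(normalized count + 1), two-sided, Benjamini-Hochberg adjustment over 18007 genes, adjusted p = 0.999 for each). No gene of the whole table passed the threshold of 0.1 (0% of 18007), and 268 genes (1.49%) had an unadjusted p under 0.05, none of them in the set. The study, with DESeq2 and the same threshold, listed genes higher and genes lower in E3–E12 diet mice. None of the 9 is in those lists, and DESeq2 was not run here. The paper's discussion also names CxCR3 among genes with similar microglial expression in both diet groups at this age. The median log2 fold change of the 9 genes was 0.27, beside 0.09 for all genes tested, with a median standard error of 0.85 for the 9. Even the narrowest of the 95% intervals, that of Ccrl2, ran from -1.24 to 1.77. The split into 5 higher and 4 lower genes became 7 and 2 when the libraries were scaled to equal totals or to an equal level of the microglia markers. All genes tested moved the same way under these scalings. Their split was 9797 higher and 8210 lower, then 10869 and 7138 with equal totals and 12337 and 5670 with equal marker levels.

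Cx3cr1, the fractalkine receptor, was by far the most abundant of the set per exon length. Controls had 13990, 69912 and 24016 normalized counts in replicates 1, 2 and 3, and E3–E12 diet mice had 13375, 41800 and 41551. Control replicate 2 was the highest and replicate 1 of each diet was low, and the groups overlapped. The means were 35973 ± 29817 in controls and 32242 ± 16340 in E3–E12 diet mice (SD, n = 3 each), and the log2 fold change was -0.0053 ± 0.79 (SE; 95% interval -1.74 to 1.73; exact permutation test over the 6 libraries, two-sided, p = 1, where the smallest p that 3 against 3 allows is 0.1). Without control replicate 2 the sign turned, to 0.64, and it was also positive when the libraries were scaled to equal totals (0.12).

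The spread of Cx3cr1 was set beside that of the microglia markers. On the log2 scale Cx3cr1 lay 2.07, 2.31 and 1.18 above the mean of the 15 markers in controls, and 2.18, 2.40 and 1.78 above it in E3–E12 diet mice. The highest library was 5.23-fold above the lowest in level, and control replicate 3 had the shortest distance from the marker mean. With the libraries set to an equal level of these markers, the log2 fold change was 0.27. Cx3cr1 lies at chr9:119901616-120069879 on the minus strand (GRCm38, as for all positions given). Its exons overlap the opposite-strand gene Gm33858 over 78 bases, and 0.269% of its stretches of 50 bases occur in another gene, Olfr720.

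Ccrl2, an atypical receptor that binds chemerin and presents it without known signaling, ranked next per exon length. Controls had 907.7, 541.8 and 542.1 normalized counts and E3–E12 diet mice had 933.1, 266.3 and 1866. E3–E12 diet mice held both the lowest and the highest library, so the control range lay inside theirs. Between diets the log2 fold change was 0.27 ± 0.68 (SE; 95% interval -1.24 to 1.77; exact permutation p = 0.7), 0.14 without control replicate 2, and -0.37 when E3–E12 diet replicate 3 was left out. The gene lies at chr9:111054486-111057519 on the minus strand.

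**Figure D1:**
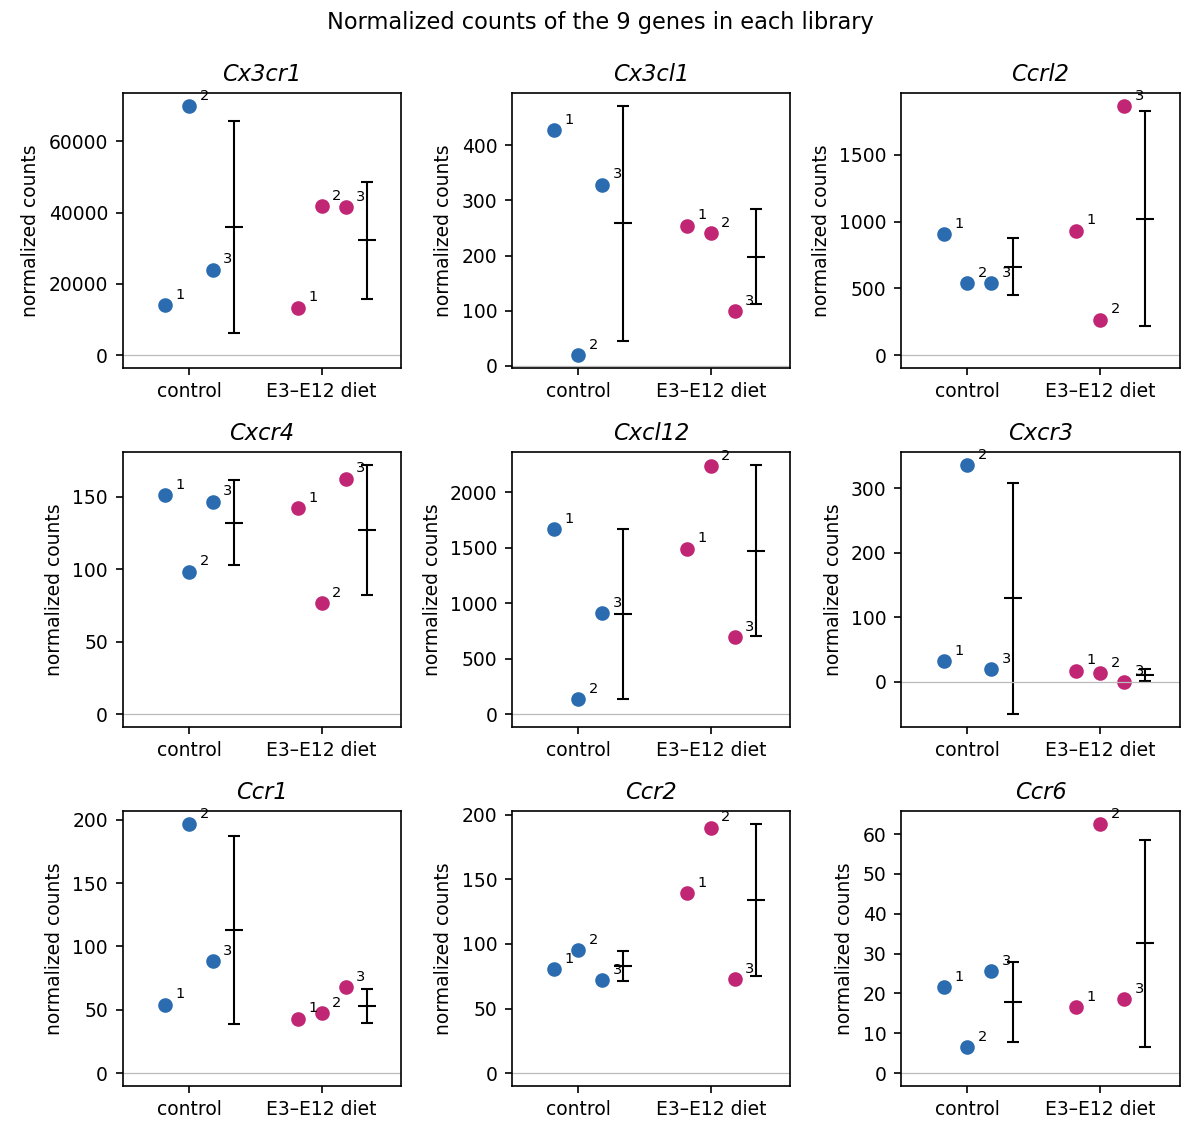
Normalized counts (vertical axes, linear, each panel on its own scale) of the 9 genes in control (blue) and E3–E12 diet (magenta) libraries. Points are libraries numbered by replicate, and horizontal ticks with bars give the mean ± SD of 3 libraries. Control replicate 2 is the highest of the 6 libraries for Cx3cr1, Cxcr3 and Ccr1 and the lowest for Cx3cl1, Cxcl12 and Ccr6.

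Cxcr4, the signaling receptor for CXCL12, was the steadiest gene of the set in normalized counts. Relative to the mean of the microglia markers it ranged from -7.15 to -4.36 on the log2 scale, a wider range than the 1.18 to 2.40 of Cx3cr1. Controls had 151.1, 98.22 and 146.5 normalized counts, and E3–E12 diet mice had 141.9, 76.61 and 162.4. Replicate 2 was the lowest in both diets, the highest library was 2.12-fold above the lowest, and the groups overlapped. The diets differed by a log2 fold change of -0.10 ± 0.70 (SE; 95% interval -1.63 to 1.44; exact permutation p = 0.8). It was -0.30 without control replicate 2, and it became positive with equal library totals (0.02) and with equal microglia marker levels (0.18). Cxcr4 lies at chr1:128588199-128592293 on the minus strand.

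Ccr1, a receptor for CCL3 and CCL5 among others, had 54.19, 196.7 and 88.37 normalized counts in controls and 43.10, 47.20 and 68.16 in E3–E12 diet mice. The E3–E12 diet libraries lay close together and control replicate 2 far above them, yet E3–E12 diet replicate 3 exceeded control replicate 1. The log2 fold change was -0.91 ± 0.86 (SE; 95% interval -2.80 to 0.98; exact permutation p = 0.2), and -0.41 without control replicate 2. The 6 border macrophage markers, including Mrc1 and Lyve1, likewise summed highest in control replicate 2, with 4969 to 17396 normalized counts in controls and 4693 to 8560 in E3–E12 diet mice. Of these markers, 4 had their highest value in that library. Pf4 was highest in control replicate 3 (172.6) and Cbr2 in E3–E12 diet replicate 3 (1334). All 6 neutrophil markers, whose sums are given with Cxcr3, also had their highest value in control replicate 2. The part of either cell type in the Ccr1 values was not tested. Ccr1 lies at chr9:123962124-123968692 on the minus strand.

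Ccr2, the CCL2 receptor that marks inflammatory monocytes, had 80.45, 95.08 and 72.17 normalized counts in controls. E3–E12 diet mice had 139.4, 190.0 and 72.91. Replicates 1 and 2 of the E3–E12 diet were above every control and replicate 3 was at the control level, so the groups overlapped in that library. This gave a log2 fold change of 0.60 ± 0.75 (SE; 95% interval -1.05 to 2.24; exact permutation p = 0.3), 0.70 without control replicate 2. It was 0.98 when E3–E12 diet replicate 3 was left out and 0.295 when replicate 2 of that diet was. The 6 monocyte markers analysed summed to 546 to 7461 normalized counts in controls and 299 to 2819 in E3–E12 diet mice, most of it Vcan. Plac8, a more specific one, was listed at 13.6, 0 and 14.2 in controls and at 0, 1.04 and 2.33 in E3–E12 diet mice, and Ly6c2 was not analysed here. The 8 T and NK cell markers analysed summed to 511 to 3727 in controls and 861 to 1062 in E3–E12 diet mice. Within that list Cd3g, a subunit of the T cell receptor complex, was highest in E3–E12 diet replicates 1 and 2 (66.9 and 300.1), whereas the more abundant Cd3d (2021) and Il7r (1698) were highest in control replicate 2. The part of these cells in the Ccr2 values was not tested.

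Ccr2 lies at chr9:124101950-124113557 on the plus strand. Of its stretches of 50 bases, 1.91% also occur in other annotated transcripts, and how the counting treated reads from them is not given in the sources used here, so the Ccr2 values are uncertain to that extent. Ccrl2, Cxcr4, Ccr1, Cxcr3, Ccr6, Cx3cl1 and Cxcl12 had no such stretch.

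Cxcr3, the receptor for CXCL9, CXCL10 and CXCL11 that is typical of activated T and NK cells, was the single gene of the set whose groups did not overlap, a separation that was lost (0 of 9 genes) with equal microglia marker levels. Controls had 31.79, 336.1 and 18.94 normalized counts. E3–E12 diet mice had 16.99, 13.49 and 0. Every E3–E12 diet library was below every control, by a small margin between E3–E12 diet replicate 1 and control replicate 3, and control replicate 2 was an order of magnitude above all others. A separation of this direction was found for 2.91% of the genes tested (5.9% in either direction), and here for 1 of 9. The log2 fold change was -3.24 ± 1.61 (SE; 95% interval -6.78 to 0.30; limma p = 0.069, adjusted p = 0.999; exact permutation p = 0.1, the smallest possible).

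The size of the Cxcr3 difference rested on both extreme libraries. It was -2.0 on the log2 scale without control replicate 2, and -1.9 when E3–E12 diet replicate 3, listed at 0, was left out. With a pseudocount of 10 it was -2.01. Low values of a library fell mainly on multiples of one step, of 0.54 to 1.97 normalized counts, and in these units Cxcr3 stood at 41, 171 and 35.1 steps in controls and at 15, 12 and 0 in E3–E12 diet mice. Of the 8 T and NK cell markers, 5, among them Cd3e, were listed at 0 in control replicate 2, where Cxcr3 was highest. Another 2, Cd3d (2021) and Il7r (1698), had their highest value there. In at least 1 other library, 4 of the 8 were listed at 0. All 6 neutrophil markers, with a sum of 442 to 3396 in controls and 583 to 649 in E3–E12 diet mice, also had their highest value in that library. The part of such cells in the Cxcr3 values was not tested. Cxcr3 lies at chrX:101731535-101734269 on the minus strand.

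Ccr6, the receptor for CCL20, had the lowest median level of the set per exon length. Controls had 21.66, 6.491 and 25.58 normalized counts and E3–E12 diet mice had 16.64, 62.53 and 18.56. All but E3–E12 diet replicate 2 were at or below 25.58, and the groups overlapped. The diets differed by a log2 fold change of 0.76 ± 1.25 (SE; 95% interval -1.98 to 3.5; exact permutation p = 0.6), and 0.19 without control replicate 2, where the value amounted to only 3.3 steps. Its ligand gene Ccl20 was listed at 0 in 5 of the 6 libraries and at 7.95 in E3–E12 diet replicate 1. Of the T and NK cell markers, whose sums are given with Ccr2, Cd3g was highest in E3–E12 diet replicate 2 with Ccr6, and Cd8a in E3–E12 diet replicate 1. In control replicate 2, where Ccr6 was lowest, Cd3d and Il7r were highest and 5 of the 8 markers were listed at 0. The part of these cells in the Ccr6 values was not tested. Ccr6 lies at chr17:8236043-8257141 on the plus strand.

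Cx3cl1, the gene for fractalkine, had 427.1, 19.53 and 328.4 normalized counts in controls and 254.4, 240.3 and 98.95 in E3–E12 diet mice. Control replicate 2 was the lowest of all libraries and the other controls were the highest, so the E3–E12 diet range lay inside that of controls. Between diets the log2 fold change was 0.36 ± 1.07 (SE; 95% interval -1.99 to 2.72; exact permutation p = 1), positive although the linear mean was lower in E3–E12 diet mice (197.9 ± 86.0) than in controls (258.3 ± 212.6). Without control replicate 2 the direction turned, to -1.03 (limma, adjusted p = 1), and the 2 remaining controls lay above all 3 E3–E12 diet libraries. With quantile normalization it was -0.06.

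Cxcl12, which encodes the ligand of CXCR4 and ACKR3, had 1666, 133.0 and 910.7 normalized counts in controls and 1491, 2235 and 690.7 in E3–E12 diet mice. Control replicate 2 was again the lowest by far, and the remaining libraries of both diets were interleaved. The means were 903.1 ± 766.4 in controls and 1472 ± 772.3 in E3–E12 diet mice (SD, n = 3 each). The log2 fold change was 1.17 ± 0.85 (SE; 95% interval -0.69 to 3.03; exact permutation p = 0.5). It was 0.10 without control replicate 2, and 1.92 when control replicate 1 was left out instead (limma, adjusted p = 0.875).

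Both ligand genes shared the low value in control replicate 2 with most markers of vascular and astrocytic cells and with 4 of 8 neuron markers. Of the endothelial markers, however, 2 had their highest value there, Cldn5 (1207) and Pecam1 (3154). Abcc9 of the mural list (1005) and Slc1a3 of the astrocyte list (1420) were not lowest there. Mural markers, such as Pdgfrb and Rgs5, summed to 15357, 1613 and 11750 normalized counts in controls and to 14478, 6585 and 8835 in E3–E12 diet mice. Neuron markers summed to 1630, 753.8 and 1024 in controls and to 1828, 1404 and 839.9 in E3–E12 diet mice. In control replicate 2, Gfap and Aldh1l1 of the astrocyte list and Kcnj8 of the mural list were listed at 0. Of the 8 neuron markers, 4 were lowest there, 3 of them at 0, and Gad1 had its highest value (492.8). Over the 6 libraries the highest value was 21.9-fold above the lowest for Cx3cl1 and 16.8-fold for Cxcl12, against 2.12-fold for Cxcr4 and 2.63-fold for Ccr2. The part of these cells in the ligand values was not tested. Cx3cl1 lies at chr8:94772009-94782427 and Cxcl12 at chr6:117168535-117181367, both on the plus strand.

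**Figure D2:**
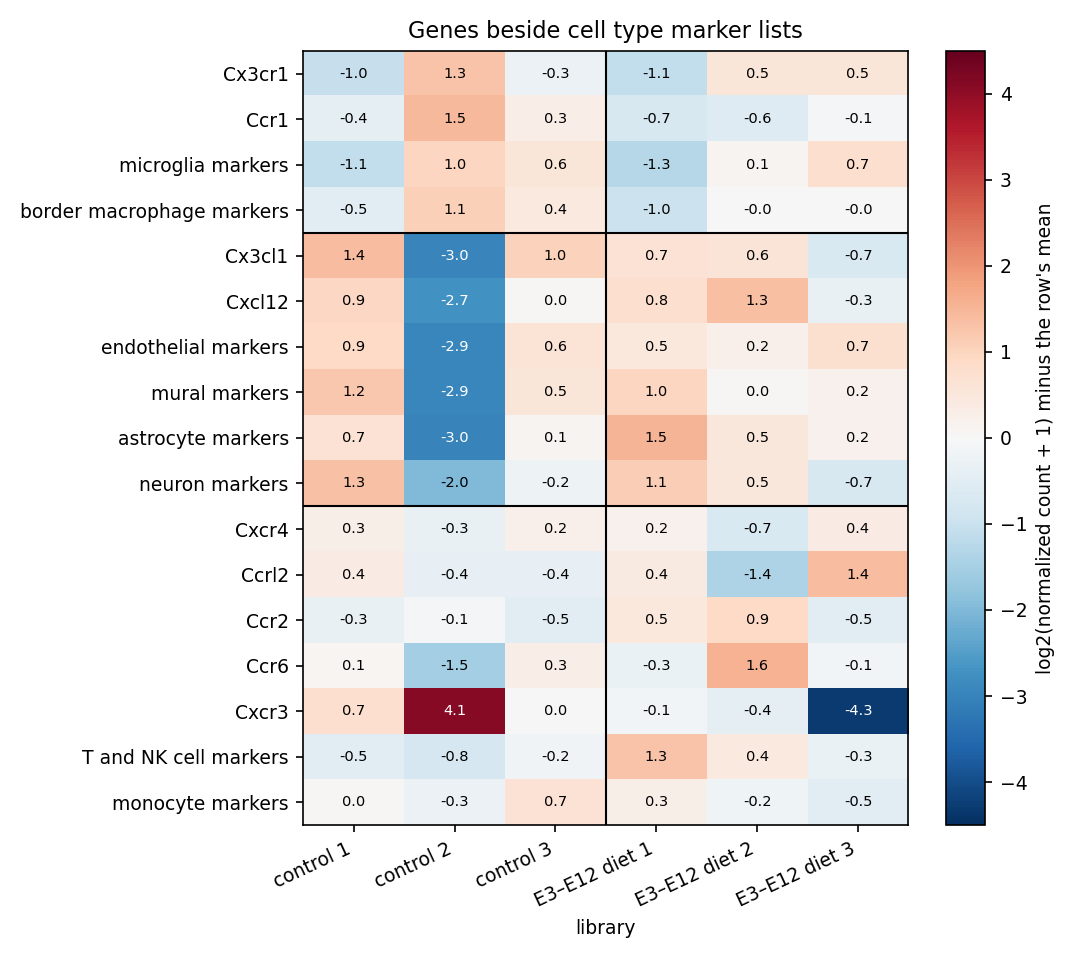
Log2(normalized count + 1) of each of the 9 genes, and mean log2 of marker lists, in each library after subtraction of the row's mean (color, and numbers in the cells). In control replicate 2, Cx3cl1 and Cxcl12 are lowest together with the endothelial, mural, astrocyte and neuron markers, and Cx3cr1 and Ccr1 are highest together with the microglia and border macrophage markers.

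**Figure D3:**
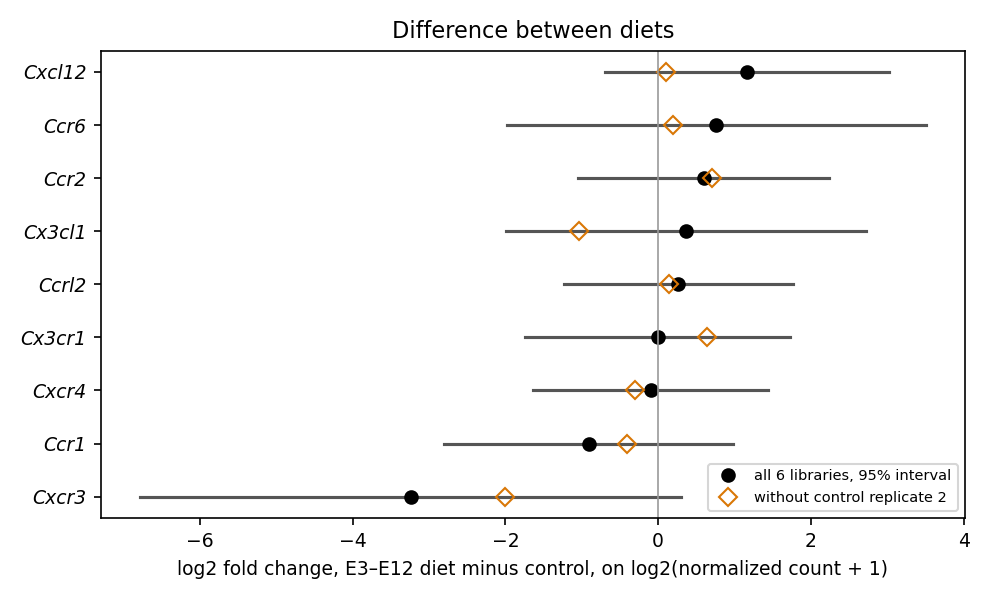
Log2 fold change between diets (horizontal axis, E3–E12 diet minus control, on log2(normalized count + 1)) for the 9 genes. Filled circles with lines are the estimates and 95% intervals from all 6 libraries, and open diamonds the estimates without control replicate 2. Every interval includes 0, and the diamonds of Cx3cr1 and Cx3cl1 lie on the other side of 0 from their circles.

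Divided by annotated exon length, the levels spanned a wide range. The median over the 6 libraries was 7277 normalized counts per kilobase of exon for Cx3cr1 (2969 to 15519), which exceeded Ccrl2, with 279 (103 to 718), in 6 of 6 libraries and 26.1-fold by median. Below these followed Cxcl12 with 147 (16.3 to 273), Cxcr4 with 79.8 (42.4 to 89.8) and Cx3cl1 with 62.9 (4.97 to 109). The lowest were Ccr1 with 21.6 (15.2 to 69.4), Ccr2 with 13.0 (10.7 to 28.1), Cxcr3 with 10.4 (0 to 194) and Ccr6 with 8.67 (2.80 to 27.0). Only Cx3cr1 was separated from its neighbour in this order. All other neighbours overlapped in their ranges, and Cxcr4 exceeded Cx3cl1, Ccr2 exceeded Cxcr3 and Cxcr3 exceeded Ccr6 in just 3 of 6 libraries each. Ccrl2 was above Cxcl12 in 5 of 6 libraries and Cx3cl1 above Ccr1 in 5 of 6.

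**Figure D4:**
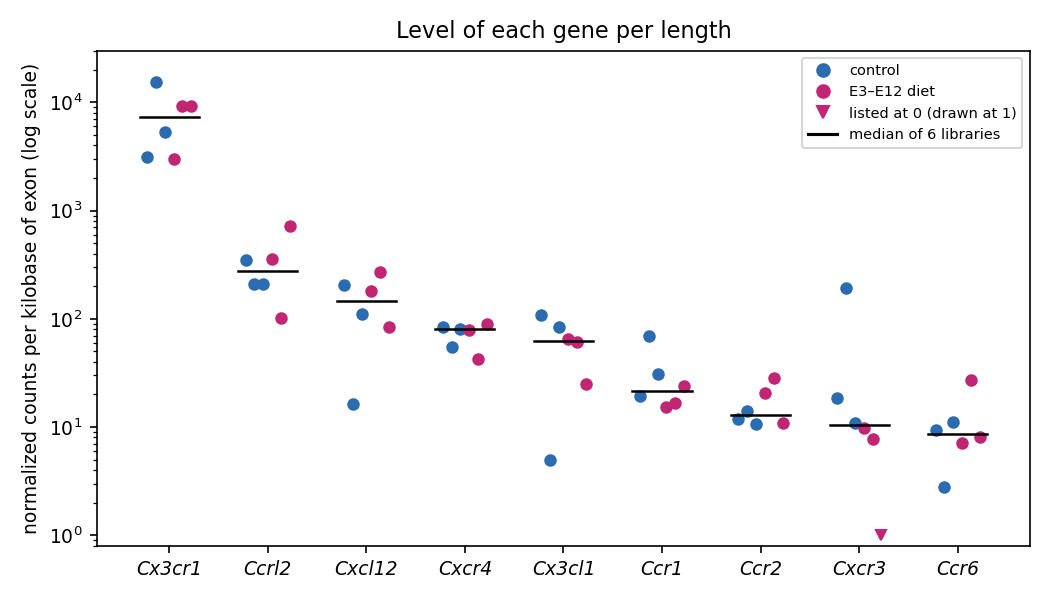
Normalized counts per kilobase of annotated exon (vertical axis, log scale) of the 9 genes in control (blue) and E3–E12 diet (magenta) libraries, ordered by the median of 6 libraries (horizontal line). The triangle marks Cxcr3 in E3–E12 diet replicate 3, listed at 0 and drawn at 1. Cx3cr1 is the single gene whose points do not overlap those of its neighbour.

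For the 6 genes that averaged 100 normalized counts or more, genes with a similar profile over the 6 libraries were sought among 10425 others, by the root mean square distance between log2 profiles centred on their means. Cx3cr1 was nearest to Limd2 (0.12) and Zfp382 (0.15), where the median distance of all candidates was 1.01. Limd2 had 1229, 5562 and 1809 normalized counts in controls and 1186, 3456 and 2935 in E3–E12 diet mice, with the same high control replicate 2 as Cx3cr1. Cx3cl1 was nearest to Ctnnal1 (0.17) and Cdh11 (0.20, median 1.69), and Cxcl12 to Bex3 (0.17, median 1.56), all 3 lowest in control replicate 2. Cxcr4 lay nearest to Gpatch1 and Pygl (0.12 each, median 0.85) and Ccr2 to Slc1a4 (0.16) and Hpcal1 (0.18, median 0.91). Ccrl2 was nearest to Rhbdf2 (0.24) and Gm15445 (0.30, median 1.16), which peaked with it in E3–E12 diet replicate 3. These are descriptions of 6 points.

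Other genes of chemokine signaling were taken as 7 lists with 68 genes, of which 59 were tested. None passed the adjusted threshold, and 24 had a higher and 35 a lower mean log2 level in E3–E12 diet mice, a split that became 29 and 30 with equal library totals and 38 and 21 with equal microglia marker levels. The median log2 fold change was -0.13, beside 0.09 for all genes. Without control replicate 2 the split was 28 and 31 and the median -0.10. All genes tested were split into 9797 higher and 8210 lower, and 8929 and 9059 without control replicate 2. With equal library totals they were split into 10869 and 7138, and with equal microglia marker levels into 12337 and 5670. The changes of split with these scalings are therefore not particular to the 59 genes. The split of most lists moved with the setting. Of the G protein and effector genes 5 were higher and 15 lower, against 11 and 9 without control replicate 2 and 13 and 7 with equal microglia marker levels. Other chemokine receptors had 1 higher and 4 lower, but 2 and 3 without that library and 3 and 2 with equal microglia marker levels. The glycosaminoglycan and clearance partners were split 2 and 2, but 4 and 0 under each of the 3 other scalings and 3 and 1 without that library. Ligands had 8 higher and 5 lower with and without that library (10 and 3 with equal microglia marker levels), and desensitisation genes 5 and 7 (2 and 10 without that library). The sheddases were split 1 and 1 in each of these settings, and the atypical receptors 2 and 1 (1 and 2 without that library and with quantile normalization). Groups did not overlap for 4 of the 59 genes (Ackr3, Xcr1, Ccl5 and Mif), all higher in E3–E12 diet mice. Among all genes tested, this separation was found for 2.99% in that direction and for 5.9% in either direction. Ackr3 alone of the 59 had an unadjusted p under 0.05, beside 0.805% of all genes in that direction and 1.49% in either direction.

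Ackr3, the scavenger receptor that binds CXCL12, had 204.8, 122.6 and 203.8 normalized counts in controls and 844.9, 295.0 and 365.3 in E3–E12 diet mice. Each E3–E12 diet library was above each control, replicate 1 by the most. Its log2 fold change was 1.38 ± 0.61 (SE; 95% interval 0.03 to 2.73; limma p = 0.046, adjusted p = 0.999; exact permutation p = 0.1), and 1.14 without control replicate 2. The unadjusted p was above 0.05 in 5 of the 6 fits that left out a library (all but that without E3–E12 diet replicate 2), with equal library totals and with equal microglia marker levels. Cxcr4, the other receptor of the same ligand, stood at -0.10 on the same log2 scale of differences, and Cxcl12 itself at 1.17. The difference between these values was not tested.

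The remaining 3 did not reach an unadjusted p under 0.05 over all 6 libraries. Xcr1, the receptor of XCL1, had 98.24, 57.77 and 81.70 normalized counts in controls and 262.2, 105.6 and 175.2 in E3–E12 diet mice (log2 fold change 1.12 ± 0.73, and 0.91 without control replicate 2). Ccl5, a ligand of CCR1, stood at 12.3, 1.69 and 18.5 in controls and 19.0, 19.4 and 153.4 in E3–E12 diet mice, of which replicates 1 and 2 were barely above control replicate 3 (2.17, and 1.31 without control replicate 2). Mif, a cytokine that also binds CXCR4, had 69.7, 160.6 and 105.7 in controls and 225.4, 175.9 and 268.9 in E3–E12 diet mice (1.05, and 1.35 without control replicate 2), but 34.1% of its stretches of 50 bases occurred in another gene as well, so its values are uncertain.

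The fractalkine sheddases and the genes with the most counts in other lists did not pass the test. Adam10, a sheddase of fractalkine, had 1085, 3484 and 1518 normalized counts in controls and 561.7, 1070 and 1262 in E3–E12 diet mice, a log2 fold change of -0.97 ± 0.57 (SE) that was -0.49 without control replicate 2, its highest library. For Adam17, the other sheddase, it was 0.05 ± 0.48, and 0.30 without control replicate 2. Ccl3, the ligand with the most normalized counts of its list and a partner of CCR1, ranged from 1030 to 3628 in controls and from 1247 to 3549 in E3–E12 diet mice. Rac1, the small GTPase with the most normalized counts among the effectors, ranged from 6057 to 14706 and from 4935 to 20243. Rgs2, which shortens G protein signals, ranged from 2099 to 9746 and from 1505 to 7018, and Cd74, the invariant chain that also serves as a receptor for MIF, from 2662 to 6486 and from 1281 to 6161.

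**Figure D5:**
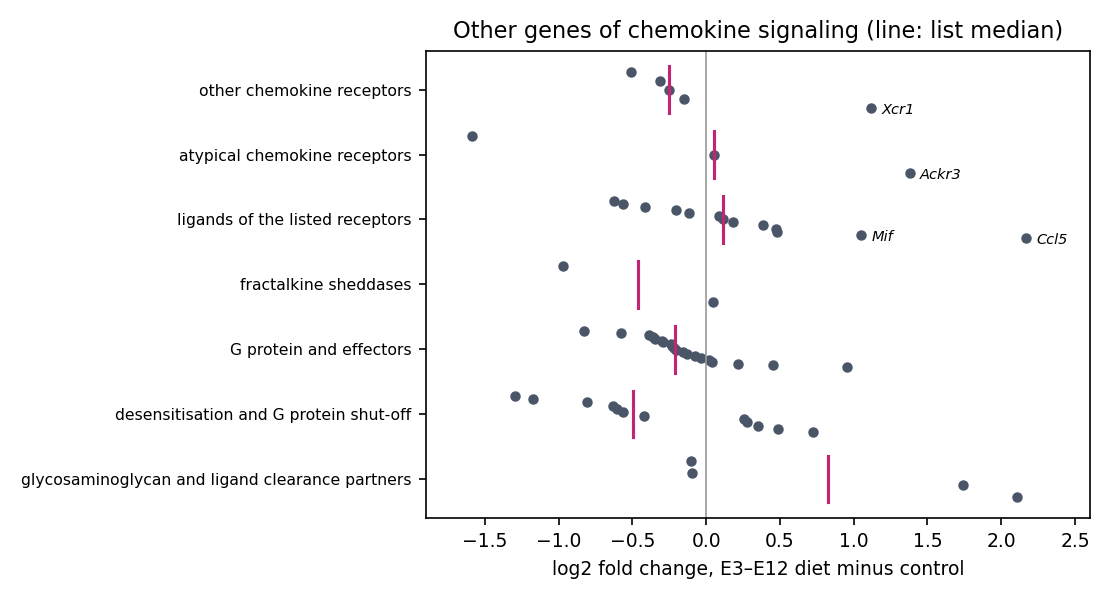
Log2 fold change between diets (horizontal axis, E3–E12 diet minus control) of the 59 tested genes of the 7 lists of chemokine signaling. Each point is a gene, the vertical line in each row is the list's median, and the 4 genes whose groups did not overlap are named. The named genes lie to the right of 0, between 1.05 and 2.17, and the medians of the lists between -0.49 and 0.82.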

How the data were processed

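RNA was sequenced from 6 microglia libraries (3 per diet, 1 pool of littermates each). The authors deposited normalized counts per gene, a scaled signal and not whole reads. The submitters' processing notes name FastQC, STAR, featureCounts, DESeq2 and the build GRCm38, with versions not given in the sources used here. The table's name mentions surrogate variables, and whether the values were adjusted for them is not given either. Low values fell on multiples of 1 step per library in 53.3% to 73.6% of cases (within 0.05 of a whole multiple), too few to recover reads, so the reads assigned to each gene are not known and no count test was run.

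Values were tested as log2(normalized count + 1) for 18007 genes with a mean of at least 10, using limma 3.58.1 in R 4.3.3 with an intensity trend and Benjamini-Hochberg adjustment, with the study's threshold of 0.1. Fold changes on this scale understate the change of low genes. Single genes had an exact permutation test over libraries. Of the identifiers, 26507 were matched to symbols. Positions and exon lengths came from GENCODE (GRCm38).

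The 9 genes, the pathway and marker lists and the tests were chosen with earlier results of these data known. Beyond the 9 genes, pathway genes were named for an unadjusted p under 0.05, groups that did not overlap or the highest level of a list, markers where they stood beside a gene, and others by profile distance; some genes that met these rules are not reported here. Alternatives covered the pseudocount, the filter, 3 scalings, the replicate number as a block and leaving out each library.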

Additional observations from a re-analysis of the deposited data

How the results depend on the processing

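Of 117 values of the 9 genes under 13 alternatives each, 105 kept their direction and 12 reversed, with adjusted p between 0.875 and 1 throughout. Cx3cr1 reversed to 0.28 with quantile normalization, 0.12 with equal library totals, 0.27 with equal microglia marker levels, 0.64 without control replicate 2 and, likewise, 0.54 without E3–E12 diet replicate 1. Cx3cl1 reversed to -0.0613 with quantile normalization and -1.03 without control replicate 2. Cxcr4 reversed to 0.0195 with equal totals, 0.18 with equal microglia marker levels, 0.01 without control replicate 1 or 0.23 without E3–E12 diet replicate 2, and Ccrl2 to -0.37 without E3–E12 diet replicate 3. Leaving out 1 library gave ranges of -0.52 to 0.64 for Cx3cr1, -1.03 to 1.16 for Cx3cl1, -0.31 to 0.23 for Cxcr4, -0.37 to 1.03 for Ccrl2, -4.04 to -1.9 for Cxcr3, 0.10 to 1.92 for Cxcl12, -1.33 to -0.41 for Ccr1, 0.295 to 0.98 for Ccr2 and 0.169 to 1.10 for Ccr6. Equal totals moved the median log2 fold change of all genes from 0.09 to 0.20 and equal microglia marker levels to 0.36, so values under these scalings are relative to those medians. The cause of the reversals was not tested. The values of pathway genes without control replicate 2 were added after seeing the data.

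With equal microglia marker levels 4 genes passed the adjusted threshold (Mef2c, Ash1l, Bicra and Gm26527, named after their values were seen), 168 had an unadjusted p under 0.05, 0 pathway genes did and 0 of the 9 genes had groups that did not overlap. The number of pathway genes with an unadjusted p under 0.05 was also 0 with equal library totals and without the intensity trend of limma, an alternative chosen after seeing the data. Leaving out 1 library at a time gave 0 to 1 genes past the adjusted threshold (Bicra, without E3–E12 diet replicate 3) and 188 to 878 with an unadjusted p under 0.05 (878 without control replicate 1). Of the 9 genes, 0 to 1 then had an unadjusted p under 0.05 (Cxcl12 without control replicate 1). Groups did not overlap for 1 to 3 of them (3 without E3–E12 diet replicate 3). With 1 library fewer, groups separate more readily, and the share over all genes was not computed for these fits. This rise is therefore not a result about the set. Of the pathway genes, 0 to 2 had an unadjusted p under 0.05 (Rgs19 and Mif without control replicate 2).

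A block for the replicate number gave 478 genes with an unadjusted p under 0.05, among them 1 of the 9 (Cxcr3, adjusted p = 0.979 by limma), and 0 genes past the adjusted threshold. Same-numbered libraries deviated from their group means with correlations of 0.26, 0.03 and 0.14 across genes. For replicates 1 and 3 these were the highest correlations of both libraries, whereas control replicate 2 correlated best with E3–E12 diet replicate 3 (0.09). The labels do not state a pairing, and the main test used none. The block changed no other call. With 3 libraries per diet, intervals of the 9 genes spanned at least 3 log2 units.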
